A study of Mus musculus with 20 samples.

Results

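The endocannabinoid receptors and enzymes were described in brain RNA of mice that did or did not carry HIV-1 Tat and received methamphetamine (Meth) or saline (Sal). The members are 10 genes: the receptors Cnr1 and Cnr2, the receptor partner Cnrip1, the synthetic enzymes Dagla, Daglb and Napepld, and the hydrolases Faah, Mgll, Abhd6 and Abhd12. They were chosen by symbol, and every probe whose RefSeq accession belongs to one of them was taken, which gave 14 of the 55681 probes on the array. Mgll has 4 probes and Abhd6 has 2, numbered here from the brightest, and each other member has 1. The levels are log2 signals of 1-colour Agilent arrays, each array being brought to a common 75th percentile, so that a difference of 1 is a 2-fold difference. Levels of different probes cannot be set against each other.

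There are 4 groups of 5 arrays, all from male C57BL/6J mice. The Tat− mice carry the GFAP-driven Tet-binding protein alone, and the Tat+ mice also carry Tat under the responsive element, so that Tat is made in astrocytes, the cells that use the GFAP promoter. All mice, controls included, received doxycycline at 100 mg/kg, the inducer of Tat, and 7 days of injections of 2 mg/kg Meth or of 0.9% saline. The labels spell the groups Tat-Meth- (Tat−/Sal), Tat-Meth+ (Tat−/Meth), Tat+Meth- (Tat+/Sal) and Tat+Meth+ (Tat+/Meth). By the methods, each group, the Sal groups too, was then challenged with 1 mg/kg Meth after 7 days of abstinence, and the caudate putamen was taken 1 h later from mice aged 3 to 5 months. The labels instead name the left hemisphere, taken 24 h after the injections ended at 6 to 7 weeks of age, and the files do not settle which holds. No probe for Tat was available to check the genotype labels.

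The arrays lay on 3 slides. Slide 1 held the 5 Tat−/Meth arrays and no other group, while 3 of the Tat+/Meth arrays lay on slide 2 with all Tat−/Sal arrays and the other 2 on slide 3 with all Tat+/Sal arrays. The bright corner control spots had a log2 signal of 14.656 to 15.061 on slide 1 and of 16.796 to 17.42 on slides 2 and 3. In every comparison with Tat−/Meth, the group and the slide therefore cannot be told apart. The labelled tissue was checked on marker genes. All 9 markers of striatal projection neurons were well above background on all 20 arrays, with a summed log2 level of 19.89 to 20.26, and 3 of 6 cortical markers were.

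Endocannabinoids are lipid messengers that a neuron makes on demand and that act back on the terminals that contact it. The 2 main ones are 2-arachidonoylglycerol, made by the diacylglycerol lipases and broken down mostly by Mgll, and anandamide, one of the N-acylethanolamines, which Napepld can make and Faah breaks down. Both act on the CB1 receptor, abundant on neurons of the striatum, where it restrains transmitter release, and on the CB2 receptor, known mostly from immune cells and microglia.

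Upstream sequences were read from RefSeq promoter windows (build GRCm38.p6), which cover 8 of the 10 members with 13 windows, and the 250 bases before each start are used here. Dagla and Abhd12 have no window in the table. The windows below are shown because Cnr2 was the member with the largest difference between groups, Cnr1 is the other receptor, and Napepld and Cnrip1 differed the other way. Capitals mark GC boxes (GGGCGG on either strand), and the sequences run 5′ to 3′ on the strand of the gene.
Cnr2, first window (chr4:135894939-135895188, plus strand): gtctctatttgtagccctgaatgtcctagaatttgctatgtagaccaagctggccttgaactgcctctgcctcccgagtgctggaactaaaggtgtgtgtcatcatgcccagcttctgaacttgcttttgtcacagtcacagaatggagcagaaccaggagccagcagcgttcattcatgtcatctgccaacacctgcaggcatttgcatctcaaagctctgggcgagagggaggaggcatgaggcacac
Cnr2, second window (chr4:135911430-135911679, plus strand): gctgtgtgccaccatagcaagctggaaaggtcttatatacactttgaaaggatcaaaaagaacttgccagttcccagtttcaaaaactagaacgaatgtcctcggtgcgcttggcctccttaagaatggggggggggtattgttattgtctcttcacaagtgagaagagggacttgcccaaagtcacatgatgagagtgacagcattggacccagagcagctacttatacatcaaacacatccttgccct
Cnr1, first window (chr4:33924014-33924263, plus strand): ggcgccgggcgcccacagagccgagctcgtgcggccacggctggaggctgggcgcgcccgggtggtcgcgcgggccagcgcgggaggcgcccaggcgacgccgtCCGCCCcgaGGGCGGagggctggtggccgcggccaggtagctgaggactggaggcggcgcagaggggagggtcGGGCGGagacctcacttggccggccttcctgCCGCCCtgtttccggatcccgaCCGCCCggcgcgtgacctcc
Napepld (chr5:21701623-21701872, minus strand): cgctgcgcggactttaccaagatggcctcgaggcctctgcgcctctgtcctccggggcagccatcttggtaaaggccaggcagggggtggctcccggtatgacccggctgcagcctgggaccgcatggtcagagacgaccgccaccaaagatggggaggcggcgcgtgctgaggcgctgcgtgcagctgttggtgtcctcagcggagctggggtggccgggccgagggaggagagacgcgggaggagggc
Cnrip1 (chr11:17051609-17051858, plus strand): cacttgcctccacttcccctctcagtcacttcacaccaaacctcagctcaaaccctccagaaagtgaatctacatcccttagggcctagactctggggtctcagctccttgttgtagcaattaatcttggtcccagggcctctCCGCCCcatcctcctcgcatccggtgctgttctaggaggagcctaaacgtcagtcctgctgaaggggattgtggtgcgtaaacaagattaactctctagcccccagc

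Both Cnr2 windows were poor in CG pairs, with 3 in each, where the Cnr1 window shown had 36, Napepld 21 and Cnrip1 5, and the median of all 32851 windows of this length was 6. The Cnr1 windows not shown had 28 and 5, and neither held a GC box. A GC box was found in 5 of the 13 member windows (Cnr1, Faah, Mgll, Cnrip1 and Abhd6) and in 32.7% of all windows. The TATA box TATAAA was in 0 of the 13 and in 12.4% of all, the cyclic AMP element TGACGTCA in 0 and 1.5%, and the AP-1 site TGANTCA in 0 and 6.7%, on either strand. Matches of different motifs were counted separately and may overlap. A match, or its lack in these windows, describes the letters alone.

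Of the 14 probes, 13 were well above background on all 20 arrays and were tested. The exception was Mgll 4, well above background on 3 of 20 arrays (1 Tat−/Meth and 2 Tat+/Meth) with log2 signals of 2.39 to 6.39, and it was not tested. Across the 13 tested probes, all differences that passed the test (limma, Benjamini–Hochberg adjusted *p* under 0.05 over 31516 probes) were in comparisons that involve Tat−/Meth. In these, as scaled here, Cnr2 went one way and the other members that passed went the other way, while with no scaling 5 of the 7 that rose with Meth in Tat− mice had negative values.

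**Figure D1:**
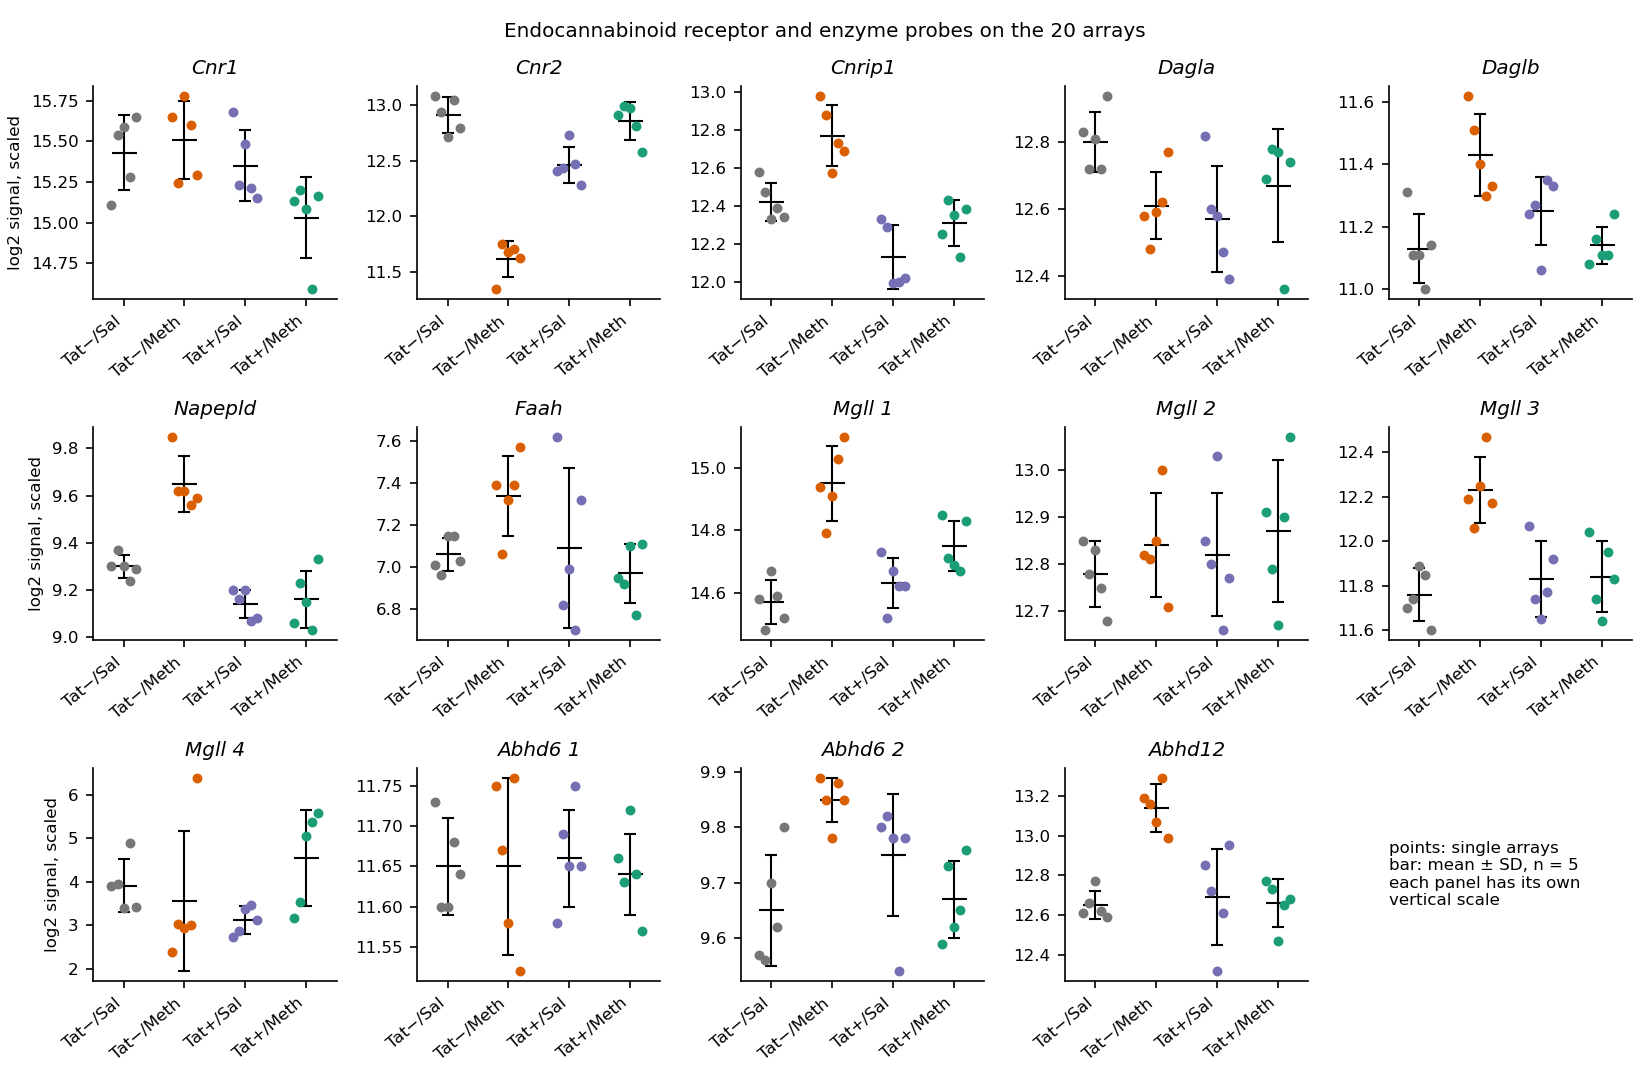
Log2 signal (vertical axis, scaled to the 75th percentile) of the 14 probes on each of the 20 arrays, by group. Points are single arrays and bars are mean ± SD (n = 5). Each panel has its own vertical scale. The Cnr2 points of Tat−/Meth lie lowest, at 11.35 to 11.75, and the Napepld and Abhd12 points of Tat−/Meth lie above those of every other group.

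Cnr2, the gene of the CB2 receptor, had the largest difference of the members. In Cnr2, the log2 signal of the 5 Tat−/Sal arrays was 13.08, 12.93, 12.71, 13.04 and 12.79, and the 5 Tat−/Meth arrays gave 11.35, 11.75, 11.68, 11.71 and 11.63. With Tat, the signals were 12.41, 12.43, 12.73, 12.47 and 12.28 in Sal and 12.91, 12.99, 12.97, 12.81 and 12.58 in Meth. All 5 Tat−/Meth arrays lay below all 15 others, with no overlap, and the Tat+/Meth and Tat−/Sal arrays overlapped. The means were 12.91 ± 0.16 in Tat−/Sal, 11.62 ± 0.16 in Tat−/Meth, 12.46 ± 0.16 in Tat+/Sal and 12.85 ± 0.17 in Tat+/Meth (SD, n = 5 each).

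The Cnr2 signal of Tat−/Meth was 2.44-fold below that of Tat−/Sal (log2 fold change −1.29 ± 0.1 (SE), adjusted *p* = 9.74e-09), and that of Tat+/Meth 2.34-fold above Tat−/Meth (1.23 ± 0.1 (SE), adjusted *p* = 1.71e-08). It was the single member past 2-fold in either comparison, beside 10.9% of all probes tested that passed more than 2-fold lower in the first and 11.3% more than 2-fold higher in the second. The difference between Meth and Sal in Tat+ mice was 0.39 ± 0.1 (SE) and did not pass (adjusted *p* = 0.242). The interaction, the Meth difference of Tat+ mice minus the one of Tat− mice, was 1.67 ± 0.15 (SE) and passed (adjusted *p* = 7.12e-08). Since slide 1 holds every Tat−/Meth array, none of these passing values can be told apart from a difference between slides. In bulk tissue, fewer cells of a type and less RNA per cell cannot be told apart either.

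In Tat+/Sal, Cnr2 lay −0.45 ± 0.1 (SE) from Tat−/Sal, which missed the threshold (adjusted *p* = 0.051). The Tat+/Sal and Tat−/Sal arrays lay on different slides. A fit with a fixed slide block gave −0.19 (adjusted *p* = 0.948), and one with a random slide block −0.49, which passed (adjusted *p* = 0.0038). In the random block fit the correlation within slides was −0.059, and a negative value lowers the error of a difference between slides. The random block fit passed 9.49% of all probes in this comparison, against 0.708% without a block and 0% with the fixed block. The fixed block fit left out Tat−/Meth and linked the Sal groups only through the Tat+/Meth arrays. Within Tat+/Meth, the single group on 2 slides, Cnr2 spanned 12.91 to 12.99 on slide 2 against 12.58 to 12.81 on slide 3, a difference of −0.26 between slide means. The order of the Cnr2 means was Tat−/Meth, Tat+/Sal, Tat+/Meth and Tat−/Sal, of which the last 2 differed by −0.06 with a 95% interval of −0.28 to 0.16.

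Markers of cells that express CB2 were read beside it. All 7 microglial markers were well above background on all 20 arrays. Their summed log2 level was 16.82 to 16.95 for Tat−/Meth, below 17.41 to 17.78 for Tat−/Sal, 17.48 to 17.72 for Tat+/Sal and 17.47 to 17.75 for Tat+/Meth. The sum is led by the brightest probe, Itgam, which was lower with Meth in Tat− mice (−1.07 ± 0.1 (SE), adjusted *p* = 7.21e-08). P2ry12 was also lower (−0.35, adjusted *p* = 0.0128), C1qa was higher (0.36, 0.00273), and the other 4 markers did not pass. Of the 7, 42.9% thus passed, beside 50.3% of all probes. Among markers of B and T cells, Ms4a1 and Cd8a were well above background on 0 arrays and Cd79a on 5 of 20, while Cd4 and Cd3e were on all. Both Cd4 and Cd3e were lower in Tat−/Meth vs. Tat−/Sal, as were 22.2% of all probes (Cd4 by a log2 fold change of −2.18, adjusted *p* = 2.53e-10). The mean level of Cd4 was 13.4 for Tat−/Meth, against 15.57 for Tat−/Sal, 15.81 for Tat+/Sal and 15.83 for Tat+/Meth. The part of these cells in the Cnr2 values was not tested.

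Cnr1, the gene of the CB1 receptor, showed another order. The log2 signals of Cnr1 were 15.11, 15.54, 15.59, 15.28 and 15.65 on the Tat−/Sal arrays and 15.65, 15.24, 15.78, 15.6 and 15.29 on the Tat−/Meth arrays. They were 15.68, 15.23, 15.48, 15.21 and 15.15 on the Tat+/Sal and 15.13, 15.2, 15.08, 14.59 and 15.16 on the Tat+/Meth arrays. The lowest array of all was Tat+/Meth replicate 4, and the Tat+/Meth range ended at 15.2, just under the lowest Tat−/Meth array at 15.24. The groups Tat−/Sal, Tat−/Meth and Tat+/Sal overlapped one another.

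In Tat+/Meth the Cnr1 signal was 1.4-fold below Tat−/Meth (−0.48 ± 0.14 (SE), adjusted *p* = 0.00892), and −0.37 (adjusted *p* = 0.0296) without Tat+/Meth replicate 4. With no scaling it was −0.14 and did not pass (adjusted *p* = 0.448). The difference of Tat+/Meth from Tat+/Sal was −0.32 (adjusted *p* = 0.41) and that from Tat−/Sal was −0.4 (adjusted *p* = 0.778), each ± 0.14 (SE), and neither passed. Without replicate 4 these were −0.21 and −0.29. Between Tat−/Meth and Tat−/Sal the difference was 0.08 with a 95% interval of −0.22 to 0.38. The interaction was −0.4 (adjusted *p* = 0.136).

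**Figure D2:**
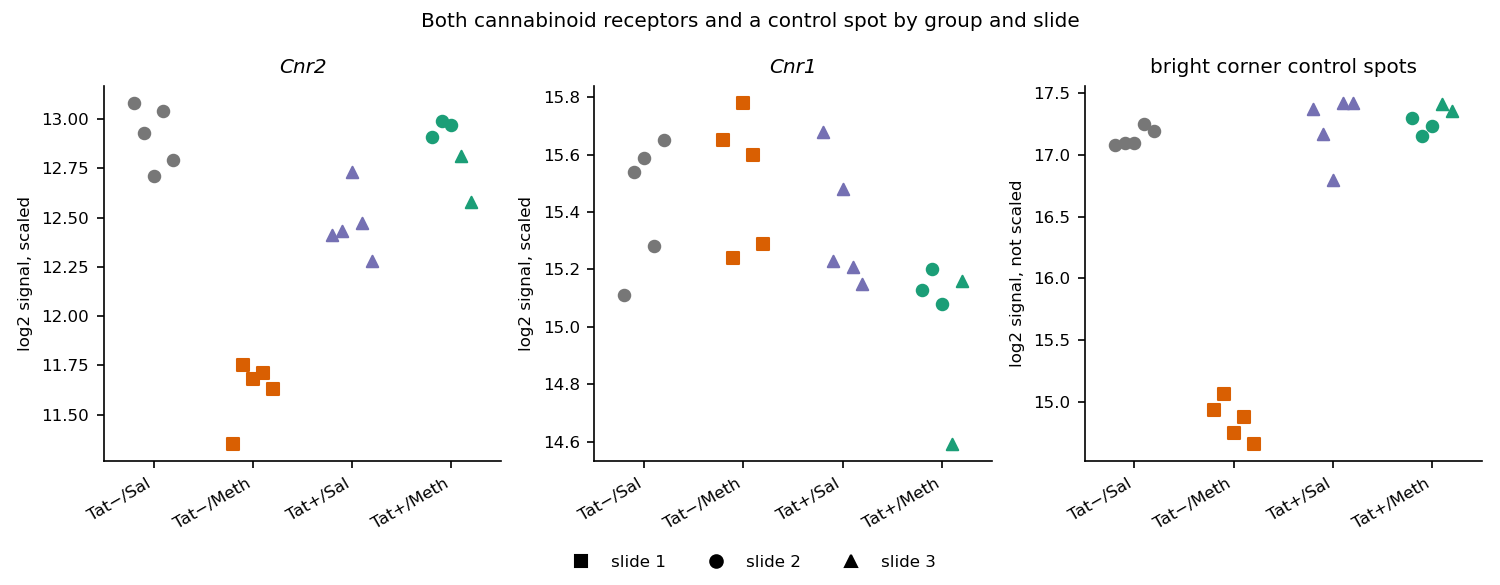
Log2 signal of Cnr2 and Cnr1 (scaled) and of the bright corner control spots (not scaled) on each array, by group on the horizontal axis, with slides 1, 2 and 3 as squares, circles and triangles. Cnr2 and the control spots are both lowest on the 5 slide 1 arrays, which are the Tat−/Meth arrays. Cnr1 is not lowest there.

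Cnrip1 encodes a protein that binds the tail of the CB1 receptor. The Tat−/Sal arrays gave Cnrip1 log2 signals of 12.58, 12.47, 12.33, 12.39 and 12.34, and the Tat−/Meth arrays 12.98, 12.88, 12.57, 12.73 and 12.69. Tat+/Sal arrays gave 12.33, 12.29, 11.99, 12 and 12.02, and Tat+/Meth arrays 12.25, 12.43, 12.35, 12.13 and 12.38. The Tat−/Meth arrays were high, with 1 value, 12.57, just under the highest Tat−/Sal array, and 3 of the 5 Tat+/Sal arrays were the lowest of all. Cnrip1 rose in Tat−/Meth vs. Tat−/Sal (0.35 ± 0.09 (SE), adjusted *p* = 0.00367) and was lower in Tat+/Meth vs. Tat−/Meth (−0.46 ± 0.09 (SE), adjusted *p* = 0.000338), where the groups did not overlap. Between Tat+/Sal and Tat−/Sal it was −0.29 (adjusted *p* = 0.12), and −0.2 with a fixed slide block (0.945), but it passed with a random slide block (−0.31, 0.0187) and with a replicate block (−0.29, 0.0472). Of all probes, 9.49% passed with the random slide block, 1.86% with the replicate block and 0% with the fixed slide block, against 0.708% with no block.

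Napepld, which releases N-acylethanolamines from membrane lipids, was the synthetic enzyme with the largest difference. In Napepld, the log2 signal of the 5 Tat−/Sal arrays was 9.3, 9.37, 9.3, 9.24 and 9.29, and the 5 Tat−/Meth arrays gave 9.85, 9.62, 9.62, 9.56 and 9.59. With Tat, the signals were 9.2, 9.16, 9.2, 9.07 and 9.08 in Sal and 9.06, 9.23, 9.15, 9.03 and 9.33 in Meth. All Tat−/Meth arrays lay above all 15 others. Each Tat+/Sal array was below each Tat−/Sal array. Napepld rose in Tat−/Meth vs. Tat−/Sal (0.35 ± 0.07 (SE), adjusted *p* = 0.000212), was lower in Tat+/Meth vs. Tat−/Meth (−0.49 ± 0.07 (SE), adjusted *p* = 5.89e-06), and had an interaction of −0.33 (adjusted *p* = 0.00846). The difference between Tat+/Sal and Tat−/Sal was −0.16 and did not pass (adjusted *p* = 0.236).

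Dagla and Daglb, the diacylglycerol lipases that make 2-arachidonoylglycerol, did not move alike. The log2 signals of Daglb were 11.31, 11.11, 11.11, 11 and 11.14 on the Tat−/Sal arrays and 11.62, 11.51, 11.4, 11.3 and 11.33 on the Tat−/Meth arrays. They were 11.24, 11.27, 11.06, 11.35 and 11.33 on the Tat+/Sal and 11.08, 11.16, 11.11, 11.11 and 11.24 on the Tat+/Meth arrays. The Daglb probe is spotted 10 times on each array, with a median SD between spots of 0.029. Most Tat−/Meth arrays lay above the rest, though the lowest of them met the highest arrays of both Sal groups. Daglb rose in Tat−/Meth vs. Tat−/Sal (0.3 ± 0.07 (SE), adjusted *p* = 0.00243) and was lower in Tat+/Meth vs. Tat−/Meth (−0.29, adjusted *p* = 0.00254), with an interaction of −0.41 (adjusted *p* = 0.00443).

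Dagla, the main of these lipases in the adult brain, was highest on the Tat−/Sal arrays. The Tat−/Sal arrays gave Dagla log2 signals of 12.83, 12.72, 12.81, 12.72 and 12.94, and the Tat−/Meth arrays 12.58, 12.48, 12.59, 12.62 and 12.77. Tat+/Sal arrays gave 12.82, 12.6, 12.58, 12.47 and 12.39, and Tat+/Meth arrays 12.69, 12.78, 12.77, 12.36 and 12.74. All 4 groups overlapped. As fitted here it passed in no comparison: the difference was −0.2 ± 0.09 (SE) in Tat−/Meth vs. Tat−/Sal (adjusted *p* = 0.0736), −0.23 in Tat+/Sal vs. Tat−/Sal (adjusted *p* = 0.198), and the interaction was 0.29 (adjusted *p* = 0.0758). The first of these lay close to the threshold. It passed, with the same sign, after quantile normalization (−0.26, adjusted *p* = 0.0227), with normexp (−0.23, 0.0444), with no scaling (−0.62, 7.66e-05), with a random slide block (0.0233), in a fit of these 2 groups alone (0.0366), by the methods' t-test after adjustment (0.0306), and without Tat−/Meth replicate 5 (0.0399) or Tat+/Meth replicate 4 (0.0368). The interaction passed after quantile normalization (0.37, 0.0284), with no scaling (0.78, 0.000357), with a random slide block (0.32, 0.0177) and without Tat−/Meth replicate 5, Tat+/Meth replicate 4 or Tat+/Sal replicate 1 (0.0137 to 0.0436). With the random slide block, 58.1% of all probes passed in Tat−/Meth vs. Tat−/Sal and 46.3% for the interaction, against 50.3% and 37% as fitted here.

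Among the hydrolases, Abhd12, which cleaves 2-arachidonoylglycerol and lysophosphatidylserine, differed most. In Abhd12, the log2 signal of the 5 Tat−/Sal arrays was 12.61, 12.66, 12.77, 12.62 and 12.59, and the 5 Tat−/Meth arrays gave 13.19, 13.16, 13.07, 13.29 and 12.99. With Tat, the signals were 12.85, 12.72, 12.32, 12.61 and 12.95 in Sal and 12.77, 12.73, 12.47, 12.65 and 12.68 in Meth. The Tat−/Meth arrays lay above all others, and the Tat+/Sal arrays were the most spread. Abhd12 rose in Tat−/Meth vs. Tat−/Sal (0.49 ± 0.1 (SE), 1.4-fold, adjusted *p* = 0.000351), was lower in Tat+/Meth vs. Tat−/Meth (−0.48, adjusted *p* = 0.000369), and had an interaction of −0.52 (adjusted *p* = 0.00552). The difference between Tat+/Meth and Tat−/Sal was 0.01 with a 95% interval of −0.19 to 0.21.

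The probes of Mgll, the monoacylglycerol lipase that ends most 2-arachidonoylglycerol signalling, did not move alike. The log2 signals of Mgll 1 were 14.58, 14.48, 14.67, 14.59 and 14.52 on the Tat−/Sal arrays and 14.94, 14.79, 14.91, 15.03 and 15.1 on the Tat−/Meth arrays. They were 14.73, 14.52, 14.67, 14.62 and 14.62 on the Tat+/Sal and 14.85, 14.71, 14.69, 14.67 and 14.83 on the Tat+/Meth arrays. Every Tat−/Meth array was above every Sal array, and the Tat+/Meth arrays overlapped both. Mgll 1 rose in Tat−/Meth vs. Tat−/Sal (0.38 ± 0.06 (SE), adjusted *p* = 6.52e-05) and was lower in Tat+/Meth vs. Tat−/Meth (−0.21, adjusted *p* = 0.0107). The Tat−/Sal arrays gave Mgll 3 log2 signals of 11.7, 11.74, 11.89, 11.85 and 11.6, and the Tat−/Meth arrays 12.19, 12.06, 12.25, 12.47 and 12.17. Tat+/Sal arrays gave 12.07, 11.74, 11.65, 11.77 and 11.92, and Tat+/Meth arrays 12.04, 11.74, 11.64, 11.95 and 11.83. The Tat−/Meth arrays of this probe lay above all Tat−/Sal and all Tat+/Meth arrays. Mgll 3 rose by 0.47 ± 0.1 (SE, adjusted *p* = 0.000498), with −0.39 in Tat+/Meth vs. Tat−/Meth (adjusted *p* = 0.0022). Mgll 2, which carries the same accession as Mgll 1, was 12.68 to 12.85 in Tat−/Sal against 12.71 to 13 with Meth and did not pass (0.06, 95% interval −0.1 to 0.23). Averaged over the 3 tested probes, Mgll rose by 0.3 ± 0.06 (SE, adjusted *p* = 0.000674) in Tat−/Meth vs. Tat−/Sal and was −0.19 in Tat+/Meth vs. Tat−/Meth (adjusted *p* = 0.0177).

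The probes of Abhd6 also differed from each other. This is another hydrolase of 2-arachidonoylglycerol, and both probes carry 1 accession. Abhd6 1 ranged over 11.6 to 11.73 in Tat−/Sal and 11.52 to 11.76 in Tat−/Meth, with a difference of 0.01 (95% interval −0.11 to 0.12). In Abhd6 2, the log2 signal of the 5 Tat−/Sal arrays was 9.57, 9.56, 9.7, 9.62 and 9.8, and the 5 Tat−/Meth arrays gave 9.89, 9.85, 9.78, 9.88 and 9.85. With Tat, the signals were 9.8, 9.82, 9.78, 9.54 and 9.78 in Sal and 9.59, 9.73, 9.62, 9.65 and 9.76 in Meth. The Tat−/Meth arrays were close together at the top, and 1 Tat+/Sal array lay far below the other 4. Abhd6 2 rose in Tat−/Meth vs. Tat−/Sal by 0.2 ± 0.06 (SE, adjusted *p* = 0.0127). The dimmer probe was lower in Tat+/Meth vs. Tat−/Meth (−0.18, adjusted *p* = 0.0209), a call that was lost without Tat+/Meth replicate 1 (adjusted *p* = 0.0544), and the brighter was −0.01 (adjusted *p* = 0.886).

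Faah, the hydrolase of anandamide, had the most spread arrays in Tat+/Sal. The log2 signals of Faah were 7.01, 6.96, 7.15, 7.15 and 7.03 on the Tat−/Sal arrays and 7.39, 7.06, 7.32, 7.39 and 7.57 on the Tat−/Meth arrays. They were 7.62, 6.82, 6.99, 6.7 and 7.32 on the Tat+/Sal and 6.95, 6.92, 7.1, 6.77 and 7.11 on the Tat+/Meth arrays. The groups overlapped, and the Tat+/Sal arrays spanned all the others. It was lower in Tat+/Meth vs. Tat−/Meth (−0.37 ± 0.14 (SE), adjusted *p* = 0.03), a call lost when any one of Tat−/Meth replicates 1, 4 and 5 or Tat+/Meth replicates 1, 2 and 4 was left out (adjusted *p* = 0.0522 to 0.0754). Its difference in Tat−/Meth vs. Tat−/Sal was 0.28 and did not pass (adjusted *p* = 0.0971).

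Counted together, 8 of the 13 tested probes passed in Tat−/Meth vs. Tat−/Sal, beside 50.3% of all probes tested. The 7 that rose were Mgll 1, Mgll 3, Daglb, Napepld, Abhd6 2, Abhd12 and Cnrip1 (28.1% of all probes rose), of which Mgll 3 and Abhd12 alone kept a positive value with no scaling, and the 1 that fell was Cnr2 (22.2%), which fell with no scaling too. With a 2-fold limit 1 of 13 passed, against 11.6%, and in Tat+/Meth vs. Tat−/Meth also 1, against 12%. The groups did not overlap in 5 probes, 4 higher and 1 lower, against 20.3% and 16.2% of all probes. The median log2 fold change of the 13 probes was 0.28 and that of all probes 0.099.

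In Tat+/Meth vs. Tat−/Meth, 10 of 13 passed beside 53.5% of all probes, 9 lower (30.3%) and 1 higher (23.2%), with 8 whose groups did not overlap (7 lower and 1 higher, against 21.1% and 16.2%). The median was −0.29 and that of all probes −0.095. This comparison and the former share the 5 Tat−/Meth arrays. The interaction passed in 7 of 13, beside 37% of all probes, Cnr2 with a positive value (19% of all probes) and Mgll 1, Mgll 3, Daglb, Napepld, Abhd6 2 and Abhd12 with negative ones (18.1%). Since a large share of all probes passed, passing does not set a member apart.

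**Figure D3:**
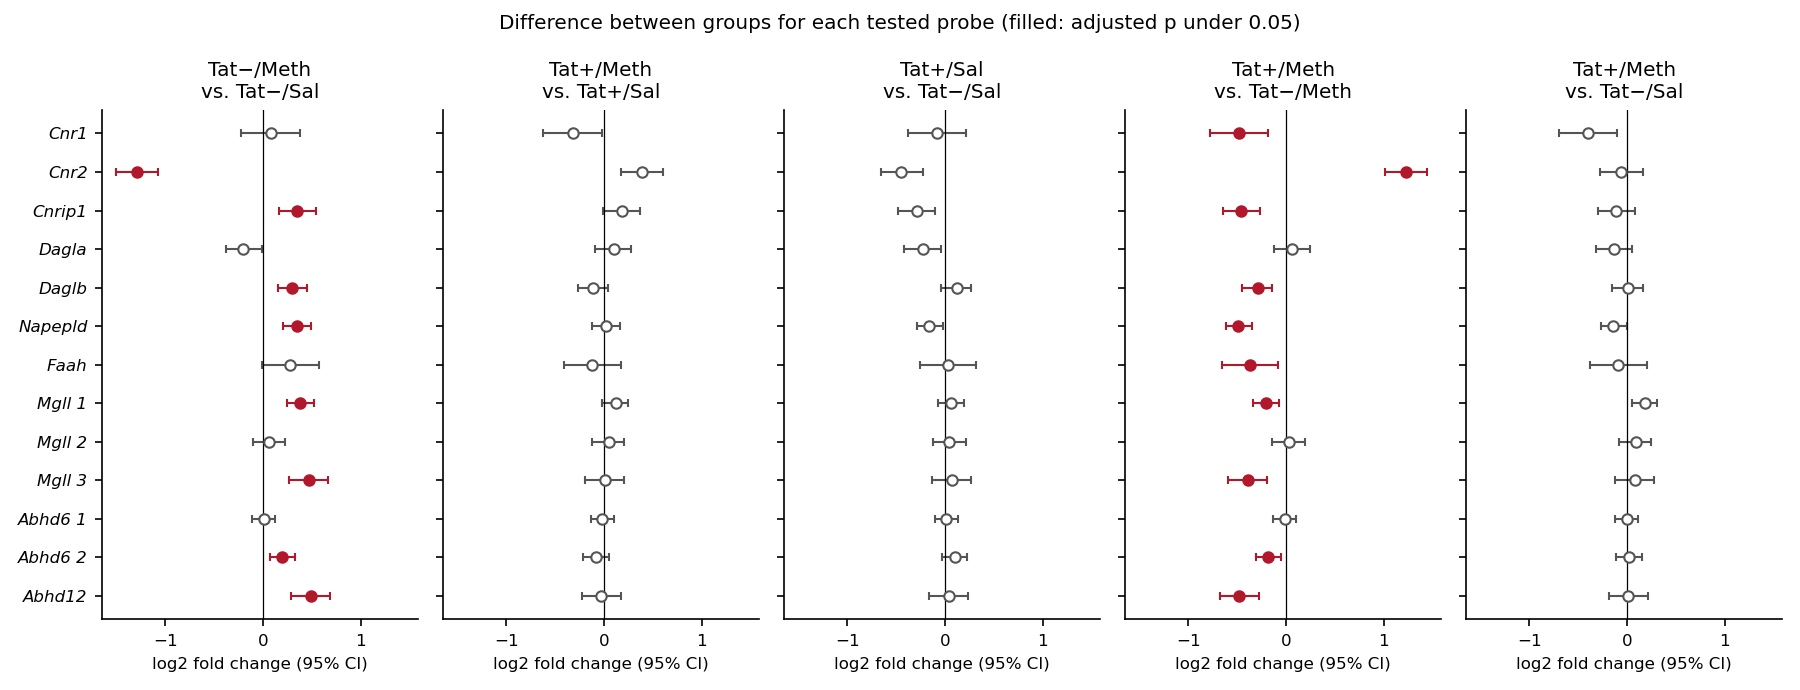
Log2 fold change with its 95% interval (horizontal axis) of the 13 tested probes (vertical axis) in the 5 comparisons of groups. Filled points passed the adjusted threshold, 8 for Tat−/Meth vs. Tat−/Sal, 10 for Tat+/Meth vs. Tat−/Meth, and no point is filled in the other 3 comparisons.

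No member passed where Tat−/Meth was not involved. In Tat+/Meth vs. Tat+/Sal 0 of 13 passed (limma), as did 0% of all probes. At unadjusted *p* under 0.05 limma counted 2 members, Cnr1 and Cnr2, and 11.5% of all probes. The methods' t-test counted 1 member and 11.1% of all probes, and 0 members after adjustment. The 95% intervals of the other 11 probes lay between −0.41 and 0.37. In Tat+/Sal vs. Tat−/Sal 0 of 13 passed (0.708% of all probes), with 4 at unadjusted *p* under 0.05 by limma (16.6% of all), Cnr2, Dagla, Napepld and Cnrip1. The methods' t-test counted 4 there (16.6% of all), and 0 after adjustment. The groups did not overlap in Napepld alone, which was lower (2.97% of all probes were apart and lower). In Tat+/Meth vs. Tat−/Sal 0 of 13 passed (0.00317% of all probes), with 2 at unadjusted *p* under 0.05 by limma (6.31% of all), Cnr1 at −0.4 and Mgll 1 at 0.18. By the methods' t-test it was 3 (8.18% of all), and 0 after adjustment.

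**Figure D4:**
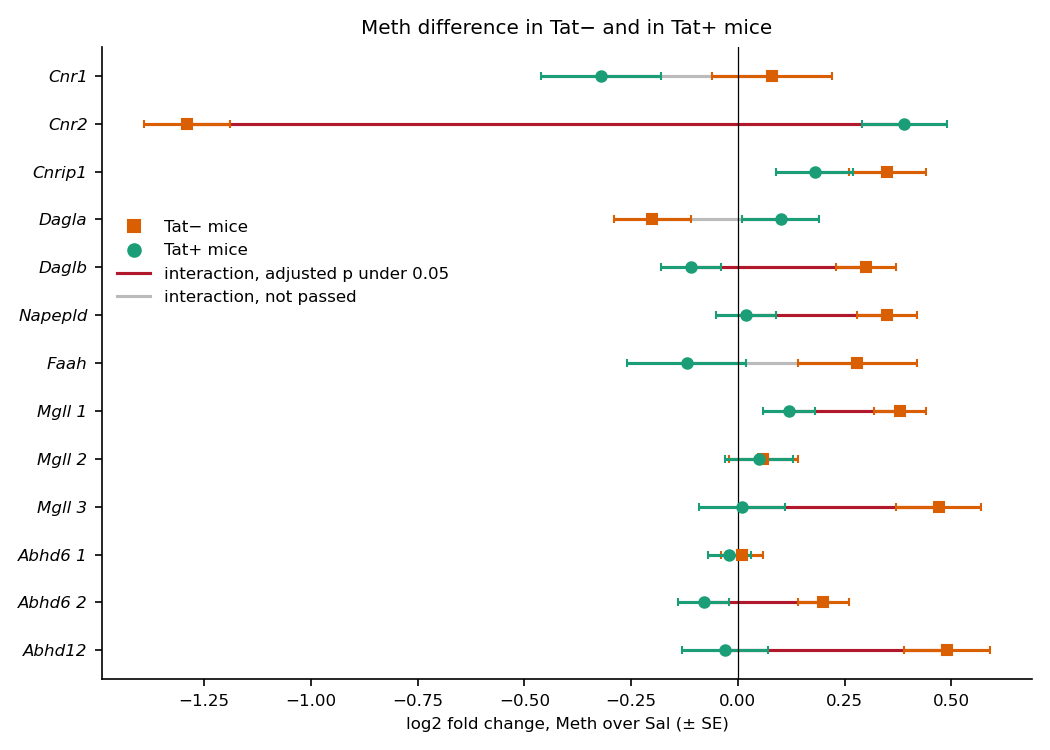
Log2 fold change of Meth over Sal (horizontal axis, ± SE) in Tat− mice (squares) and in Tat+ mice (circles) for the 13 tested probes. Red lines join the points where the interaction passed, which are 7 probes. Cnr2 runs from −1.29 to 0.39, and the other 6 run from a higher to a lower value, an order that turned with no scaling for all but Abhd12.

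The size, and for several members the sign, of these differences depended on how the arrays were scaled. The median over all probes in Tat−/Meth vs. Tat−/Sal was 0.099 as scaled here, 0.224 after median scaling, −0.331 with no scaling and 0.127 after normexp background correction of the same 31516 probes. The split of calls moved too: 55.8% of all probes that passed were higher as scaled here, 2.2% with no scaling and 64.6% with normexp. Where normexp was run with its own filter, which let in 55669 probes, the median was 0.28 and the share 80.7%. Relative to the median of all probes, Cnr2 was −1.39 and lay within −1.45 to −1.38 over 6 ways of scaling. The scaling used here, median scaling and no scaling differ only by a constant per array, which subtracting this median all but removes. Their agreement was thus fixed in advance and is no test of stability. The ways that could differ gave Cnr2 −1.45 (quantile), −1.39 (normexp, same probes) and −1.38 (the authors' series matrix). Abhd12 was 0.33 to 0.42 above the median, Mgll 3 0.31 to 0.38, Napepld 0.23 to 0.26, Mgll 1 0.2 to 0.31, Cnrip1 0.17 to 0.26, Daglb 0.14 to 0.21 and Abhd6 2 0.08 to 0.11. Normexp with its own filter was planned but is left out of these ranges, as its median covers more probes. Against that median Cnr2 was −1.54, Abhd12 0.23, Mgll 3 0.15, Napepld 0.07, Mgll 1 0.04, Cnrip1 0.02, Daglb −0.02 and Abhd6 2 −0.07. With no scaling the values of Mgll 1, Daglb, Napepld, Abhd6 2 and Cnrip1 in this comparison turned negative and Cnr2 alone of the 8 still passed.

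**Figure D5:**
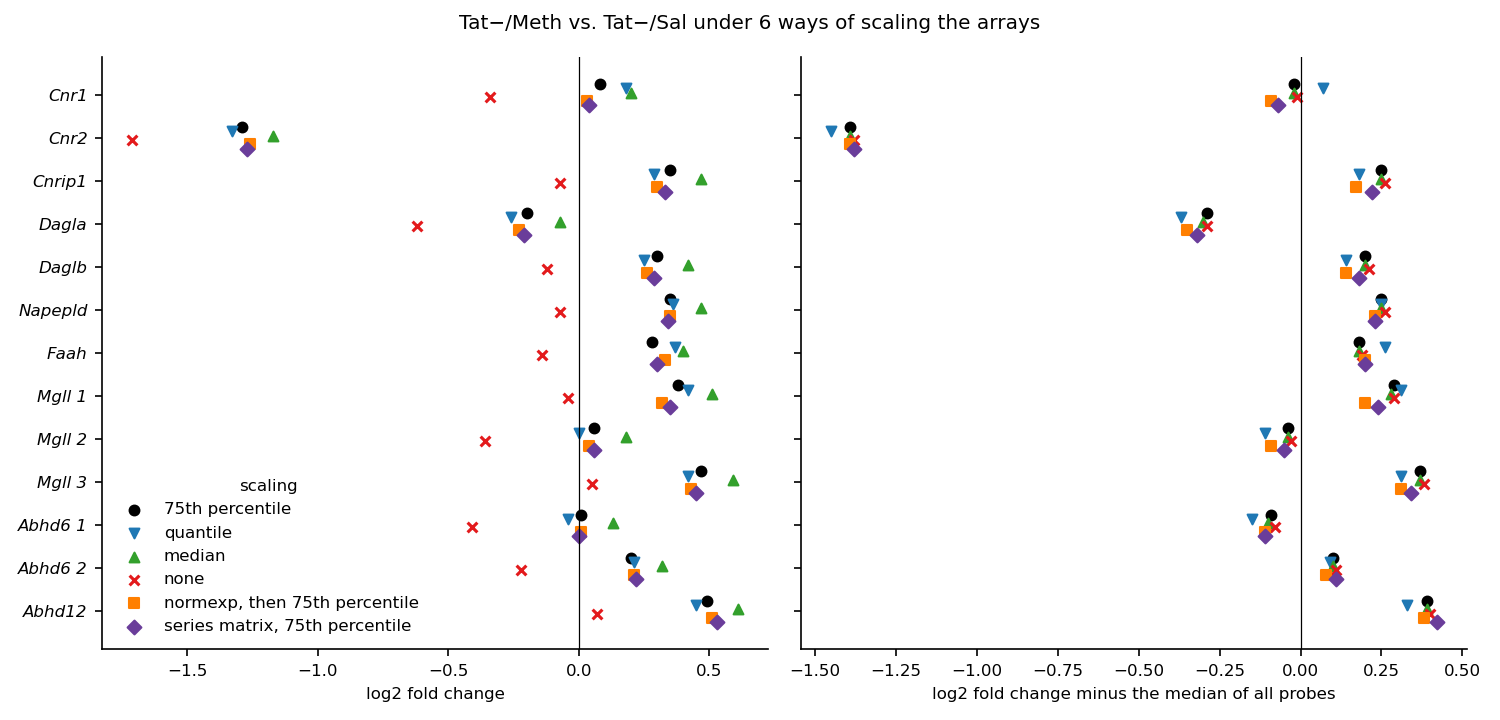
Log2 fold change of the 13 tested probes in Tat−/Meth vs. Tat−/Sal under 6 ways of scaling the arrays, as given (left) and less the median of all probes (right). Normexp is drawn for the same 31516 probes. Cnr2 lies below −1 in each, and the points of a probe lie closer together on the right than on the left. For the scaling used here, median scaling and no scaling, this follows from the subtraction, as they differ only by a constant per array.

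Markers of other cells were read too. The summed level of the 6 astrocyte markers, all well above background on all arrays, was 15.68 to 15.96 for Tat−/Meth, 15.57 to 15.64 for Tat−/Sal, 15.39 to 15.69 for Tat+/Sal and 15.54 to 15.64 for Tat+/Meth. Of these, 3 rose in Tat−/Meth vs. Tat−/Sal, led by the gap junction gene Gja1 (0.84, adjusted *p* = 6.1e-07), and 0 fell. That is 50% passing, beside 50.3% of all probes (28.1% higher). The 5 markers of CCK interneurons, cells rich in the CB1 receptor, summed to 15.2 to 15.34 for Tat−/Meth, 15.32 to 15.65 for Tat−/Sal, 15.3 to 15.57 for Tat+/Sal and 15.29 to 15.53 for Tat+/Meth. This sum is led by the brightest probe, Gad2, with group means of 14.96 to 15.07, against 12.86 to 13.42 for Cck. It therefore says little about the other 4 markers. Of the 5, 1 passed in Tat−/Meth vs. Tat−/Sal, Cck, which was lower (−0.56, adjusted *p* = 0.0253), 20% beside 50.3% of all probes. The part of astrocytes and CCK interneurons in the values of the members was not tested. In the 3 comparisons without Tat−/Meth, 0 of the markers named here passed in limma.

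The wider pathway was read from a list of 49 other genes, of which 39 were tested by their brightest probe. Of the 39, 11 rose and 5 fell in Tat−/Meth vs. Tat−/Sal, 41% of the list beside 50.3% of all probes, with a median of 0.12. The 5 with the smallest adjusted *p* were Scp2, a lipid transfer protein (0.58 ± 0.06 (SE), adjusted *p* = 9.97e-08), Ddhd1, a phospholipase (−0.51, 1.92e-06), Fabp7, a fatty acid carrier of astrocytes (0.67, 6.95e-05), Gnai2, an inhibitory G protein subunit (−0.49, 0.000357), and Ppara, a nuclear receptor for N-acylethanolamines (−1.39 ± 0.28 (SE), 0.000443). Ppara and the carboxylesterase Ces1d (1.32, 0.00546) were the 2 past 2-fold, and the latter is named for that reason alone. Ces1d was dim, being well above background on 16 arrays and not on all. Its mean log2 level was 5.04 in Tat−/Sal, 6.37 in Tat−/Meth, 5.95 in Tat+/Sal and 5.7 in Tat+/Meth. It thus met the filter, a group mean of 6, only through Tat−/Meth, the group in which it was then called higher.

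Tat+/Meth vs. Tat−/Meth had 5 of the 39 higher and 14 lower (48.7%, beside 53.5% of all probes), with Scp2 at −0.69 ± 0.06 (SE, adjusted *p* = 9.61e-09), Ppara at 1.85 (2.2e-05), Ddhd1 at 0.39 (3.85e-05), the arrestin Arrb2 at −0.69 (0.000179) and Gnai2 at 0.52 (0.000184). The interaction passed in 4 with positive and 7 with negative values (28.2% of the list, beside 37% of all probes), led by Scp2 (−0.61, adjusted *p* = 7.75e-06) and Ddhd1 (0.58, 4.88e-05). Then came Plaat3 (0.44, 0.00116) and Gde1 (−0.39, 0.00282), both enzymes of N-acylethanolamine synthesis, and Ppard (−0.38, 0.00343), a nuclear receptor. In the other 3 comparisons 0 of 39 passed, and the smallest adjusted *p* was 0.117 (Gde1, 0.21, Tat+/Sal vs. Tat−/Sal). The other receptors of these lipids were dim: Trpv1 was well above background on 4 of 20 arrays, Gpr55 on 1, and Gpr18 and Gpr119 on 0.

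Genes that varied like the members from array to array were ranked by the Pearson correlation of their deviations from the group means over the 20 arrays, among 18251 named probes well above background throughout, with the brightest probe of each member. The arrays share scaling and slides, so these values are a description. For Cnr1 the nearest were Cd72 (r = 0.905) and Me2 (0.903). For Cnr2 they were Zfp658 and 2610028H24Rik (0.864 each) and Icmt (0.854). The nearest gene was Gprasp2 for Cnrip1 (0.945), Rab33b for Napepld (0.934), Psmf1 for Abhd12 (0.943), Hdgf for Dagla (0.888), Abcg4 for Daglb (0.879), Fam114a2 for Faah (0.823), Insyn2a for Abhd6 (0.763) and Ebf3 for Mgll (0.738). Gprasp2 is itself a receptor partner in the pathway list. Between members, the highest values were 0.63, for Faah with Mgll and for Napepld with Cnrip1, and the lowest was −0.51, for Cnr2 with Abhd12.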

How the data were processed

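RNA of 20 mouse brains was measured on 1-colour Agilent arrays. The intensity values used are the processed, background-subtracted signals in the scanner files deposited by the authors, from Agilent Feature Extraction 10.7.3.1. Spots that this software marked as outliers were left out (4278 over all arrays), spots of a probe were averaged as log2 values, and arrays were brought to a common 75th percentile (9.635 to 10.335 on the log2 scale before). A probe was tested if each group had values on 3 or more arrays and 1 or more group means reached 6. The arrays' number limits the precision.

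Groups come from the labels. Group means of all 20 arrays were fitted in limma (R 4.3.3, limma 3.58.1), with Benjamini–Hochberg adjustment over 31516 probes. The methods' t-test used the same values. Of 50 simulated probes per size, 24%, 48%, 88% and 100% were called at changes of 0.3, 0.5, 1 and 2 in Tat−/Meth vs. Tat−/Sal (31378 probes, 9 false calls). Only these probes were changed there, while 50.3% of all probes passed in the data. The adjusted threshold was therefore stricter in the simulation, and its shares do not give the power of the real comparison.

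The members and lists were chosen with earlier results of these data known. All member probes are reported. Some values of genes outside the members are not reported here. Pathway genes are named where they pass with a change above 2-fold, or, if fewer than 5 do, the 5 with the smallest adjusted *p*. The labels do not state litters or days, so *p* measures only the spread between these samples, which may be technical.

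Alternatives were quantile, median or no scaling, normexp with an offset of 50, the authors' series matrix (intensity values that matched the background-subtracted signal plus a constant for 99.8 to 100% of single-spot probes, within 1% or 0.1, those below 1 set to 1), a filter on probes well above background or none, the brightest or mean probe of a gene, slide as a fixed or random block or within 1 slide, 2 groups alone, a variance trend, the t-test, other thresholds, a replicate block and leaving out single arrays. Figures used Python 3.11.15 and matplotlib 3.10.9.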

Additional observations from a re-analysis of the deposited data

Results flagged for a closer look

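Among 56 sets of 5 arrays (14 probes in 4 groups), 5 had an array far from the other 4, where chance gives about 1 in 20. The gap to the nearest array, as a share of the range, was 0.8 for Cnr1 in Tat+/Meth replicate 4 (14.59, the others 15.08 to 15.2) and 0.79 for Dagla in the same array (12.36, the others 12.69 to 12.78). It was 0.79 for Napepld in Tat−/Meth replicate 1 (9.85, the others 9.56 to 9.62), 0.86 for Abhd6 2 in Tat+/Sal replicate 4 (9.54, the others 9.78 to 9.82) and 0.84 for Mgll 4, the dim probe, in Tat−/Meth replicate 5 (6.39, the others 2.39 to 3.02).

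The Meth difference was not the same in Tat+ and Tat− mice (limma interaction, adjusted *p* under 0.05) for 7 probes: Cnr2 (1.67), Mgll 1 (−0.27), Mgll 3 (−0.46), Daglb (−0.41), Napepld (−0.33), Abhd6 2 (−0.27) and Abhd12 (−0.52). Each of these values contains the slide 1 arrays, so group and slide cannot be told apart.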

How the results depend on the processing

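Of the 35 log2 fold changes with an unadjusted *p* under 0.05, every one kept its sign when each array was left out (684 of 700 values on the same side of the threshold, 7 lost, 9 gained). Over these fits the counts of member probes that passed were 8 to 9 for Tat−/Meth vs. Tat−/Sal, 8 to 10 for Tat+/Meth vs. Tat−/Meth, 7 to 8 for the interaction, 0 to 1 in Tat+/Sal vs. Tat−/Sal (Cnr2, adjusted *p* = 0.0329 to 0.0475, without Tat−/Meth replicate 5, Tat−/Sal replicate 3, Tat+/Meth replicate 5 or Tat+/Sal replicate 3) and 0 in the other 2. The shares of all probes were, in the same order, 46.4 to 51.4%, 49.4 to 55.3%, 34 to 40.6% and 0.00317 to 1.59%.

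The count of 8 in Tat−/Meth vs. Tat−/Sal became 5 with median scaling (35.8% of all probes) and 5 with no scaling (50.4%). Of the 5 with no scaling, only Cnr2 was among the 8. With all probes of a gene averaged, 5 of 10 genes passed (47.8% of all genes). Over tested probes alone, an average added after seeing the data, it was 7 of 10 (49%). The count was 1 with a 2-fold limit (11.6%) and 0 at adjusted *p* under 0.01 and above 3-fold (5.59%). The 10 of Tat+/Meth vs. Tat−/Meth became 4 with no scaling (42.9% of all probes) and 1 and 0 with the same limits (12% and 5.89%). Of the 4, only Cnr2 was among the 10, and the others were Mgll 2 (0.37), Dagla (0.4) and Abhd6 1 (0.33). The 7 of the interaction became 1 and 4 with median and no scaling (23.1% and 43.4% of all probes), and 1 and 1 with the limits (12.4% and 5.96%). With no scaling Cnr2 alone of the 7 still passed. Averaged probes gave 4 of 10 genes (34% of all genes), or 5 of 10 over tested probes (35.3%). The 0 of Tat+/Sal vs. Tat−/Sal became 1 with quantile normalization (0.948% of all probes), a variance trend (1.38%) or normexp on the same 31516 probes (0.324%, also added later). It was also 1 with the brightest probe (1.42% of genes) or either average (0.991% and 1.06%). It became 3 with slide as a random block (Cnr2, Dagla and Cnrip1, beside 9.49% of all probes) and 4 by the unadjusted t-test (16.6%). That t-test also gave 1 member in the Meth comparison of Tat+ mice (11.1%) and 3 where Tat+/Meth was set against Tat−/Sal (8.18%).

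With no scaling, Tat−/Meth vs. Tat−/Sal turned to −0.04 for Mgll 1, −0.12 for Daglb, −0.07 for Napepld, −0.22 for Abhd6 2 and −0.07 for Cnrip1. Tat+/Meth vs. Tat−/Meth turned to 0.13 for Mgll 1, 0.04 for Daglb and 0.16 for Abhd6 2, and the interaction to 0.22 for Mgll 1, 0.03 for Mgll 3, 0.07 for Daglb, 0.15 for Napepld and 0.21 for Abhd6 2. Averaged over all 4 probes, with the dim Mgll 4, Mgll turned to 0.11 in Tat+/Meth vs. Tat−/Meth and to 0.26 for the interaction, where the 3 tested probes gave −0.19 and −0.25. Leaving out the scaling shifted the tested member probes of a comparison alike, apart from rounding. In Tat−/Meth vs. Tat−/Sal Cnr2 went from −1.29 to −1.71, Cnr1 from 0.08 to −0.34 and Abhd12 from 0.49 to 0.07. The turns are thus the group difference in the 75th percentile that scaling takes out. What made that percentile differ was not tested. The 75th percentile before scaling had a median of 9.757 on slide 1 and 10.067 on the others, with overlapping ranges. Of all probes that passed, the share that was higher went from 43.4% to 94.9% with no scaling and 35.9% with normexp on the same probes (21.9% over 55669 probes) in Tat+/Meth vs. Tat−/Meth, and from 51.2% to 99% and 40.9% (25.3%) for the interaction.

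Same-numbered arrays of different groups had correlations of −0.14 to 0.31 between their deviations. These were not set beside those of differently numbered arrays. Whether same-numbered arrays share more than a number was therefore not tested. With the replicate block the counts were 8, 10 and 7 as before (52.1%, 55.1% and 38.7% of all probes, against 50.3%, 53.5% and 37% with no block). In Tat+/Sal vs. Tat−/Sal the count was 2 (Cnr2 and Cnrip1, beside 1.86%, against 0.708% with no block). The number of arrays and the dim Mgll 4 probe limit what could be seen.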
